A study of Homo sapiens with 12 samples.

Results

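The aryl hydrocarbon receptor (AHR) genes described here are CYP1A1, CYP1B1, AHRR, UGT1A6 and ALDH3A1, a set of textbook AHR target and xenobiotic metabolism genes. They were picked from the deposited table by gene symbol, and all 5 were found among its 3699 genes. The 12 RNA-seq libraries come from SW480, an established human cell line derived from a colorectal adenocarcinoma. GLY, GLY_PUE (both agents), PUE and untreated cells had 3 libraries each. The labels do not spell out GLY or PUE, and the abbreviations are kept. Every culture had 12 h in medium containing 10% serum, followed by 12 h with the agents or without them, per the protocol. The GLY replicates carry label times of 12, 13 and 14 h, and the PUE and GLY_PUE replicates carry 12 h. Whether replicates were separate cultures is not stated, and p-values cover the spread between libraries alone, part of which may be technical. A single cell line was used, and how far it stands for colon tissue was not measured.

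AHR is a ligand-activated transcription factor that waits in the cytosol in a complex with the chaperone HSP90. On binding a ligand it enters the nucleus, pairs with ARNT and binds short DNA elements with the core GCGTG near its target genes. CYP1A1 and CYP1B1 oxidise aromatic compounds, UGT1A6 joins the products to glucuronic acid, ALDH3A1 oxidises aldehydes, and AHRR is a repressor that competes with AHR for ARNT. In the gut, the receptor is known for sensing dietary compounds and products of bacterial tryptophan metabolism. AHR and ARNT themselves were looked for but are not in the deposited table. It holds only genes selected for change, so receptor levels are unknown.

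The promoter windows of CYP1A1, AHRR and UGT1A6, the 3 genes with an entry in the RefSeq promoter table (GRCh38.p14), show where that core lies close to a start site. Each stretch is 45 bases long and is written 5′ to 3′ on the gene's own strand. Capitals mark the core GCGTG, and the stretches are shown because these 3 genes were lower after GLY relative to library totals.
CYP1A1: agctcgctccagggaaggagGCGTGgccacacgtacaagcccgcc
AHRR: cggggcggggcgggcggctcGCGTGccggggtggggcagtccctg
UGT1A6: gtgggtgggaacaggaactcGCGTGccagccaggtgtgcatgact
The CYP1A1 stretch is at chr15:74725561-74725605 on the minus strand, with the core 57 to 53 bases before the start and a TATAAA 32 to 27 bases before it. The AHRR stretch is at chr5:321664-321708 on the plus strand, with the core 30 to 26 bases before the first of 2 annotated starts. The window of the other AHRR start held the core at 247 to 243 and at 42 to 38 bases before it. The UGT1A6 stretch is at chr2:233691482-233691526 on the plus strand, 200 to 196 bases before the first of 2 starts, and the window of the other start held no GCGTG on either strand. The longer form TNGCGTG was found in the first windows of AHRR and UGT1A6, where it contains the core. Over 35116 promoter windows of 250 bases, searched on both strands, 32.2% held GCGTG (or CACGC), 4.52% held TNGCGTG (or CACGCNA) and 10.7% held TATAAA (or TTTATA). These matches are descriptions of sequence, and binding was not measured.

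Depth and library structure set how far the values can be read. Recovered library totals were 19.7 to 21.4 M reads, of which the listed genes held 13.8 to 15.4%, and with no read counted, the floor of 3 counts comes to at most 0.152 CPM (counts per 1000000 reads of a library), which covers counting error only. Replicates 1 and 2 differed over genes by 0.28 to 0.30 (root mean square of the log2 difference) in GLY_PUE, PUE and untreated cells, while replicate 3 stood 0.56 to 0.66 from them. GLY replicate 1 stood apart, at 0.93 and 1.07 from replicates 2 and 3. PUE and untreated libraries with the same number differed by only 0.27 to 0.30. The table held 2 of 12 colon epithelium markers, the intestinal transcription factor CDX2 and the brush border protein VIL1. Their summed level was 4.16 to 7.29 FPKM (fragments per kilobase of transcript in a library scaled to 1000000) in GLY and 4.98 to 5.69 in GLY_PUE. It was 25.5 to 33.2 in PUE and 24.9 to 31.9 in untreated libraries, so these 2 markers fell with the 5 genes. The table holds only genes selected for change, so the levels of the other colon epithelium markers are unknown. Of markers of other cells, the table held 1 of 6 leukocyte markers (CD68, 9.43 to 13.4 FPKM in GLY, 9.71 to 13 in GLY_PUE, 2.55 to 2.91 in PUE and 2.08 to 3.27 in untreated libraries). PDGFRB, 1 of 6 fibroblast markers, had 0.29 to 0.62 FPKM in GLY and 0.31 to 0.66 in GLY_PUE, against 0.12 to 0.16 in PUE and 0.15 to 0.18 in untreated libraries. ALB, 1 of 5 hepatocyte markers, was at or below 0.28 FPKM everywhere, and no endothelial or retinal marker was in the table. The part of these markers in the results was not tested, and in bulk RNA fewer cells of a type and less RNA per cell cannot be told apart.

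In untreated cells the genes covered a wide range of levels per length. ALDH3A1 was the highest with 16.8 ± 8.42 FPKM, followed by UGT1A6 with 10.0 ± 0.0896, AHRR with 7.91 ± 1.36, CYP1A1 with 1.19 ± 0.256 and CYP1B1 with 0.327 ± 0.0321 FPKM (SD, n = 3 each). PUE libraries had the same order. In GLY libraries, as in GLY_PUE libraries, AHRR stood above UGT1A6, with 2.95 ± 0.435 against 1.86 ± 0.502 FPKM in GLY. Ranges of neighbouring genes in these orders did not overlap in any of the 4 groups.

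**Figure D1:**
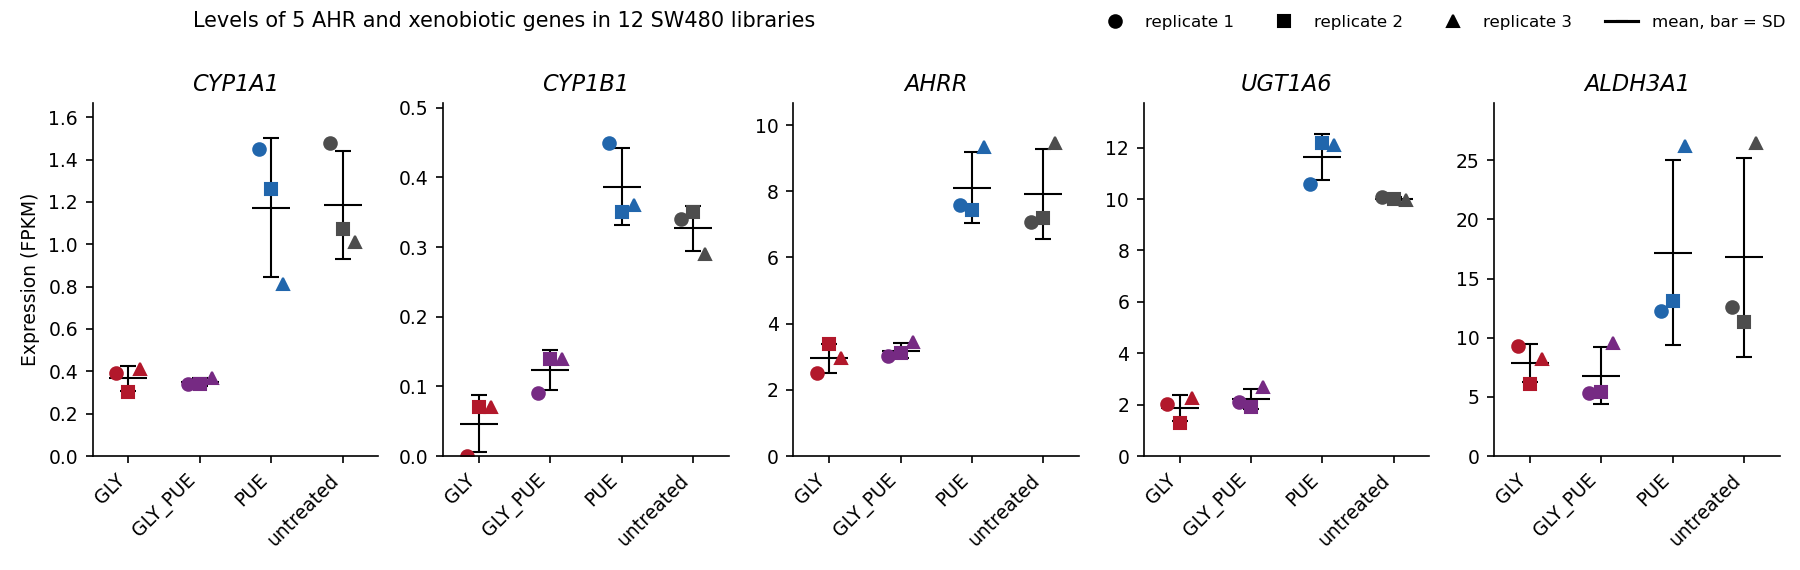
Expression (FPKM, linear axes from 0) of the 5 genes in each library, by group. Points are libraries, shaped by replicate number, and bars are the mean and SD (n = 3). All GLY and GLY_PUE libraries lie below all PUE and untreated libraries for each gene, and replicate 3 is the highest ALDH3A1 library in GLY_PUE, PUE and untreated cells.

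After GLY, all 5 genes were lower than in untreated cells, by 2.13- to 6.52-fold relative to library totals (under TMM scaling ALDH3A1 changes sign). UGT1A6 and CYP1B1 had the greatest falls and ALDH3A1 the smallest. All 5 passed the test (edgeR quasi-likelihood, Benjamini-Hochberg adjusted p under 0.05 over 3429 tested genes), and no gene's groups overlapped. This table was selected by the authors for change, and 64.6% of all tested genes were called lower in the same comparison, while 65.5% had GLY libraries all below the untreated ones, so the count of 5 is read against that background. The median log2 fold change of the 5 genes was −1.71, beside −1.15 for all tested genes.

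CYP1A1, the most studied AHR-induced monooxygenase, had 0.39, 0.30 and 0.41 FPKM in GLY libraries, against 1.48, 1.07 and 1.01 FPKM in untreated libraries. The highest GLY library was thus well under the lowest untreated one. Its log2 fold change was −1.71 (SE 0.31, 95% interval −2.38 to −1.03, adjusted p = 0.000639). These levels rest on 17 to 23 reads per GLY library and 54 to 79 per untreated library. CYP1B1, which oxidises oestrogens as well as polycyclic hydrocarbons, had 0, 0.07 and 0.07 FPKM in GLY libraries and 0.34, 0.35 and 0.29 FPKM in untreated libraries. No read was counted in GLY replicate 1, and 8 in each of the others after rounding (exact 95% Poisson interval 3.45 to 15.8), against 30 to 36 in untreated libraries. The log2 fold change of CYP1B1 was −2.71 (SE 0.60, adjusted p = 0.00199), and without GLY replicate 1 it was −2.13.

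AHRR, the repressor of the pathway, had 2.52, 3.39 and 2.95 FPKM in GLY libraries, against 7.07, 7.18 and 9.47 FPKM in untreated libraries. It rests on 297 or more reads in every library, and its log2 fold change was −1.42 (SE 0.23, adjusted p = 0.000307). The repressor was thus lower in the same libraries as CYP1A1 and CYP1B1. UGT1A6, which conjugates small planar phenols, had 2.01, 1.30 and 2.27 FPKM in GLY libraries and 10.1, 9.99 and 9.98 FPKM in untreated libraries. Untreated libraries had an SD of 0.0896 FPKM, on 332 to 340 reads with exact 95% Poisson intervals that lie within 297 to 378. The SD is narrower than this counting error, so it is not a measure of precision. Every GLY library of UGT1A6 was far below the untreated ones. Its log2 fold change was −2.43 (SE 0.26, adjusted p = 3.05e-05).

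ALDH3A1, an aldehyde dehydrogenase that AHR ligands induce in some tumour lines, had 9.27, 6.13 and 8.20 FPKM in GLY libraries, against 12.6, 11.3 and 26.5 FPKM in untreated libraries. Untreated replicate 3 was 2.16 times the mean of the other two, and the corresponding ratio was 1.10 in GLY. The log2 fold change was −1.09 (SE 0.40, adjusted p = 0.0229). The call was lost without untreated replicate 3 (−0.62, adjusted p = 0.146) and without GLY replicate 2 (−0.94, adjusted p = 0.0795).

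Set against the rest of the table, UGT1A6 and CYP1B1 were further down than most genes and ALDH3A1 was not. Of all tested genes, 7.26% had a lower log2 fold change than UGT1A6 and 4.75% a lower one than CYP1B1, and the corresponding shares were 21.2% for CYP1A1, 32.8% for AHRR and 54.9% for ALDH3A1. TMM scaling within the table, which centres the tested genes, moved their median to −0.02 and left 10.1% of them called lower. Under TMM, UGT1A6 (log2 fold change −1.28, adjusted p = 0.00133) and CYP1B1 (−1.65, adjusted p = 0.0386) stayed called. The CYP1B1 call under TMM was lost without replicate 3 of all groups (−2.19, adjusted p = 0.0681). CYP1B1 also rests on few reads, with 0 in GLY replicate 1. CYP1A1 (−0.58, adjusted p = 0.275) and AHRR (−0.27, adjusted p = 0.327) were not called, and ALDH3A1 was at 0.13 (adjusted p = 0.884), with the opposite sign.

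**Figure D2:**
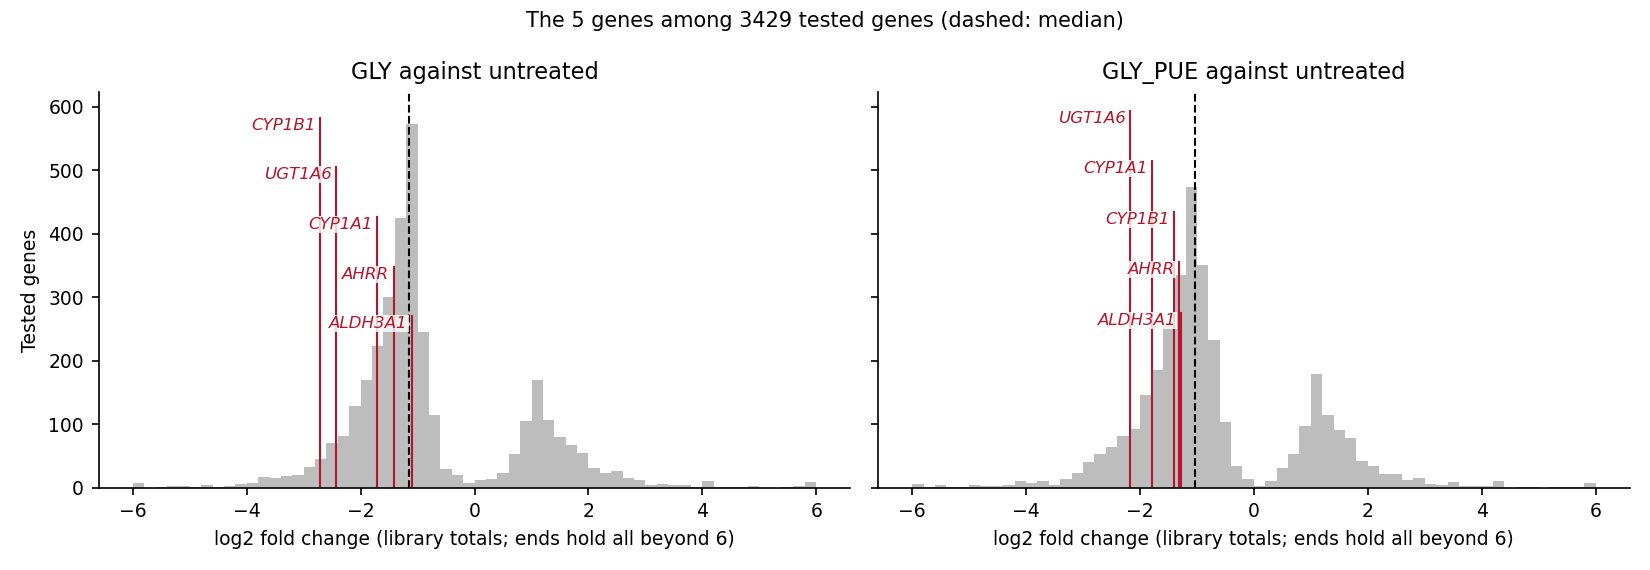
Log2 fold changes of the 3429 tested genes (grey, number per bin of 0.2) for GLY and for GLY_PUE against untreated, relative to library totals. Red lines mark the 5 genes and the dashed line the median, −1.15 and −1.03. The distribution has a main peak below 0 and a smaller one above it, and the 5 genes lie in or left of the main peak.

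With both agents, the 5 genes were again lower than in untreated cells, by 2.43- to 4.50-fold relative to library totals, with a median log2 fold change of −1.40 beside −1.03 for all tested genes. All 5 were called, beside 57.1% of tested genes called lower, and no gene's groups overlapped, beside 65.4% of tested genes. CYP1A1 had 0.34, 0.34 and 0.37 FPKM in GLY_PUE libraries (log2 fold change −1.78, SE 0.31, adjusted p = 0.00056). AHRR had 3.02, 3.10 and 3.44 FPKM (−1.31, SE 0.23, adjusted p = 0.000494). The greatest fall was that of UGT1A6, with 2.11, 1.91 and 2.67 FPKM (−2.17, SE 0.25, adjusted p = 5.92e-05). All 3 stood clearly below their untreated levels given above.

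CYP1B1 had 0.09, 0.14 and 0.14 FPKM in GLY_PUE libraries, on 10 to 15 rounded reads (log2 fold change −1.40, SE 0.55, adjusted p = 0.0335). That call was lost when any 1 of the 3 GLY_PUE or 3 untreated libraries was left out, with adjusted p between 0.0511 (without untreated replicate 3) and 0.107 (without GLY_PUE replicate 1). ALDH3A1 had 5.34, 5.43 and 9.55 FPKM (−1.28, SE 0.40, adjusted p = 0.0123), and its call was lost without untreated replicate 3 (−0.81, adjusted p = 0.0771) or GLY_PUE replicate 1 (−1.13, adjusted p = 0.0521). Under TMM, with a median of −0.02 and 11.5% of tested genes called lower, UGT1A6 alone of the 5 was called (−1.17, adjusted p = 0.00231).

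**Figure D3:**
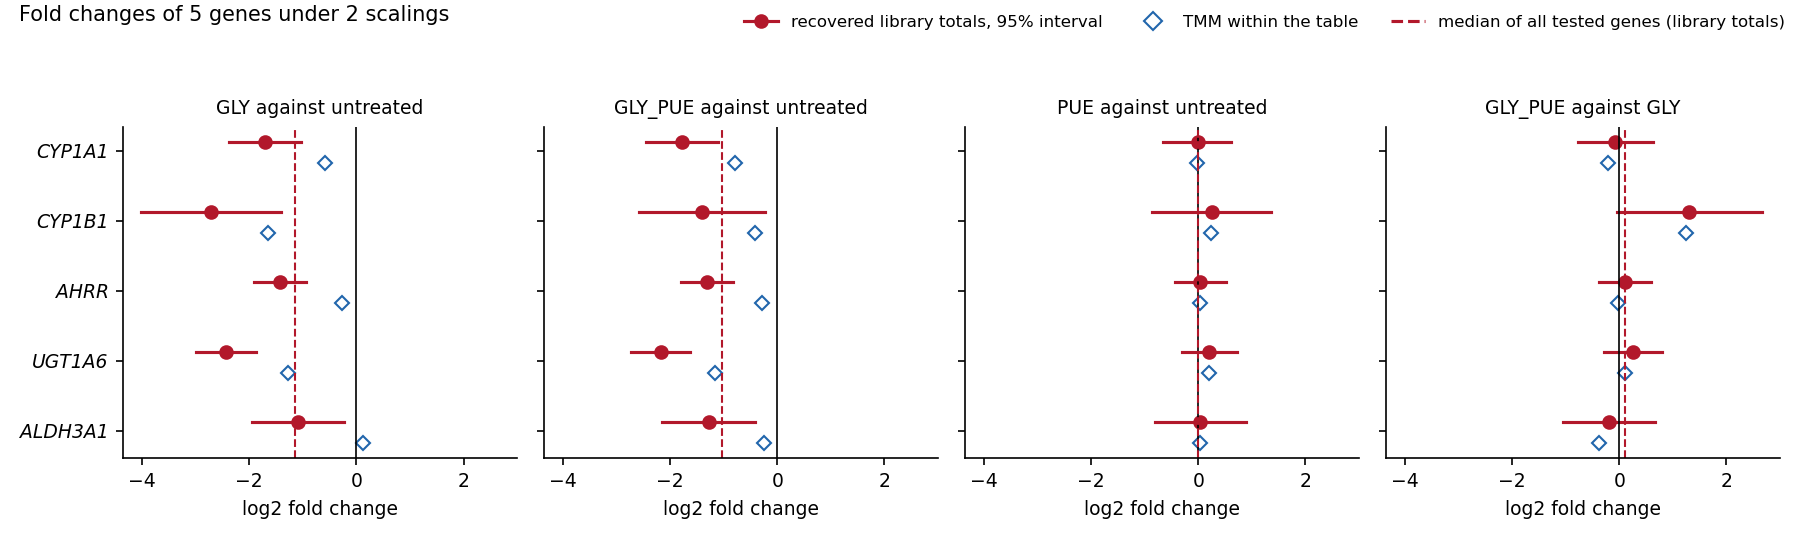
Log2 fold changes of the 5 genes in 4 comparisons. Filled circles with bars are estimates and 95% intervals relative to library totals, open diamonds are TMM estimates, and dashed lines are the medians of all tested genes. UGT1A6 lies left of the median in both comparisons with untreated that involve GLY, and its TMM values, −1.28 and −1.17, stay below 0.

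The same treatment against PUE alone asks what GLY changed in cells that also had PUE. All 5 genes were called lower in GLY_PUE than in PUE libraries, beside 57.3% of tested genes, and no gene's groups overlapped (65.8% of tested genes). UGT1A6 had a log2 fold change of −2.38 (SE 0.25, adjusted p = 3.26e-05) and AHRR one of −1.35 (SE 0.23, adjusted p = 0.000427). Of the other enzymes, CYP1A1 was at −1.76 (adjusted p = 0.000589), CYP1B1 at −1.65 (adjusted p = 0.0162) and ALDH3A1 at −1.32 (adjusted p = 0.0106). CYP1B1 lost its call without GLY_PUE replicate 1 (adjusted p = 0.0618) and ALDH3A1 without PUE replicate 3 (−0.88, adjusted p = 0.062). Under TMM, with 11.7% of tested genes called lower, UGT1A6 was the only one of the 5 called (−1.37, adjusted p = 0.000814). The comparisons of GLY_PUE with untreated and with PUE share the GLY_PUE libraries.

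PUE alone gave no called difference in the 5 genes. None of the 3429 tested genes (0%) was called by edgeR, with 12 at an unadjusted p under 0.05. DESeq2 called 0 with 4 below it, and limma-voom 0 with 14. CYP1A1 had 1.45, 1.26 and 0.81 FPKM in PUE libraries (log2 fold change −0.01, 95% interval −0.65 to 0.62). AHRR had 7.57, 7.42 and 9.34 FPKM (0.04, −0.44 to 0.52). ALDH3A1 had 12.3, 13.1 and 26.2 FPKM (0.04, −0.81 to 0.89). The PUE and untreated libraries of these 3 genes overlapped. In this fit, which does not pair libraries by number, changes up to the interval bounds cannot be told from no change. Between libraries of the same number, the log2 ratios were −0.03, 0.24 and −0.32 for CYP1A1. They were 0.10, 0.05 and −0.02 for AHRR, and −0.02, 0.16 and 0.01 for ALDH3A1. With the replicate block, 0 tested genes were called as well.

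UGT1A6 had 10.6, 12.2 and 12.1 FPKM after PUE and CYP1B1 had 0.45, 0.35 and 0.36. In CPM, all 3 PUE libraries were above all 3 untreated libraries for both genes, as were 1.63% of tested genes. The margin was small: the PUE libraries of UGT1A6 had 17.5 to 20.2 CPM and the untreated ones 16.5 to 16.8 CPM. For CYP1B1 the lowest PUE library and the highest untreated library were both at 1.81 CPM after rounding, on 37 and 36 reads. The log2 fold changes were 0.21 for UGT1A6 (95% interval −0.30 to 0.73) and 0.25 for CYP1B1 (−0.86 to 1.36), both with adjusted p = 1. The authors' deposited table gives UGT1A6 a q-value of 0.0229 here, by a method not given in the sources used here.

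Adding PUE to GLY was compared directly, in GLY_PUE against GLY libraries. No gene of the 5 and none of the tested genes (0%) was called by edgeR, with 57 at an unadjusted p under 0.05, while DESeq2 called 0 with 49 and limma-voom 0 with 60. CYP1B1 moved the most: all 3 GLY_PUE libraries (0.468 to 0.726 CPM) were above the GLY libraries (0 to 0.375 CPM), as were 3.21% of tested genes. Its log2 fold change was 1.31 (SE 0.62, 95% interval −0.04 to 2.66, adjusted p = 0.959), and without GLY replicate 1, the library with no CYP1B1 read, it was 0.74. The authors' deposited table gives CYP1B1 a log2 ratio of 1.35 with q = 0.00219, and ALDH3A1 a log2 ratio of −0.19 with q = 0.0129. The other 4 genes had log2 fold changes between −0.19 (ALDH3A1, 95% interval −1.05 to 0.67) and 0.26 (UGT1A6, −0.29 to 0.80), and their groups overlapped.

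Whether the effect of PUE differed with and without GLY was tested by the interaction. No gene was called (0%), with 33 at an unadjusted p under 0.05 by edgeR, 22 by DESeq2 and 35 by limma-voom. CYP1B1 had the largest estimate of the 5, 1.06 (SE 0.80, 95% interval −0.68 to 2.80, adjusted p = 0.999). For UGT1A6 it was 0.04 (−0.70 to 0.79), for AHRR 0.07 (−0.61 to 0.75), for CYP1A1 −0.06 (−0.99 to 0.88) and for ALDH3A1 −0.23 (−1.43 to 0.97).

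The direction was also followed library by library, since replicate 3 stood apart in most groups. Within each number, UGT1A6 was lower in GLY than in untreated cells by a log2 ratio of −2.33, −2.91 and −2.13, and CYP1A1 by −1.98, −1.83 and −1.30. AHRR had −1.49, −1.08 and −1.68. ALDH3A1 had −0.48, −0.91 and −1.64, a wider spread than that of the other genes with a ratio in every number. In GLY_PUE against untreated the UGT1A6 ratios were −2.26, −2.39 and −1.90, those of CYP1A1 −2.13, −1.66 and −1.49, and those of CYP1B1 −1.89, −1.32 and −1.07. ALDH3A1 was at −1.26, −1.0 and −1.44, so every number had a ratio below 0 for these genes.

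**Figure D4:**
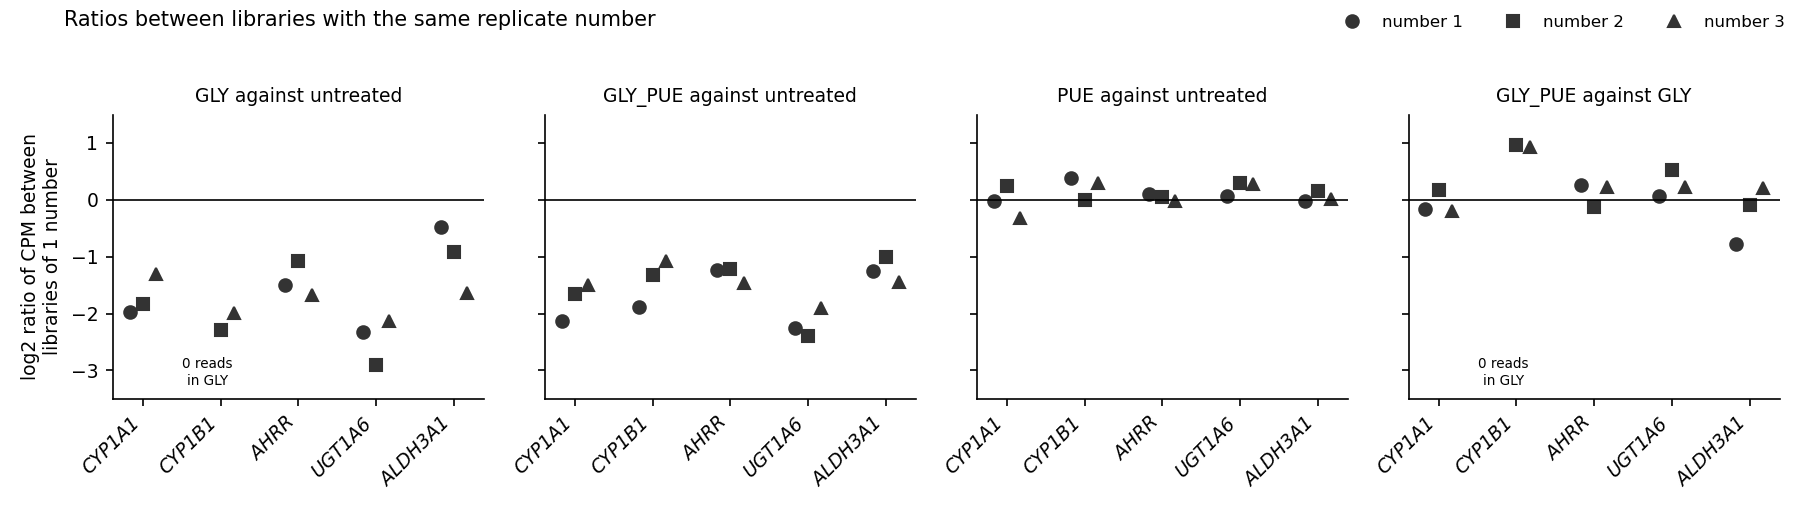
Log2 ratios of CPM between libraries that carry the same replicate number, for the 5 genes in 4 comparisons. Each point is 1 pair of libraries, and CYP1B1 has no ratio for number 1 where GLY replicate 1 had 0 reads. All points lie below 0 for GLY and GLY_PUE against untreated, and between −0.32 and 0.39 for PUE against untreated, relative to library totals.

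UGT1A6 shares sequence with its neighbours, which bears on its counts. In GENCODE release 29, 2278 of its 5180 exonic bases (44%) on chromosome 2 belong also to other UGT1A genes, of which there are 8 in the annotation, and the authors' counting could split reads between them. UGT1A3, UGT1A4 and UGT1A5, enzymes that conjugate other compounds with glucuronic acid, were also in the table. UGT1A5 averaged 0.95 ± 0.56 FPKM in GLY and 3.03 ± 1.52 in untreated libraries (log2 fold change −1.67, adjusted p = 0.061). It was not called in that fit but was called lower with the replicate block (−1.71, adjusted p = 0.0284), by DESeq2 (adjusted p = 0.04) and with only the compared libraries (adjusted p = 0.0268), while under TMM it was at −0.55 (adjusted p = 0.682). UGT1A4 averaged 0.103 ± 0.179 FPKM in GLY and 1.31 ± 0.214 in untreated libraries (−3.67, adjusted p = 0.00357), and with its only GLY library above 0, replicate 3, left out the fitted value was −8.98. UGT1A3 averaged 0.33 ± 0.165 FPKM in GLY and 0.877 ± 0.401 in untreated libraries (−1.40, adjusted p = 0.0123), and its call was lost without untreated replicate 1 (−0.97, adjusted p = 0.07). Summed over the 4 genes, the level was 6.29 ± 1.79 CPM in GLY and 6.09 ± 1 in GLY_PUE libraries. It was 28.9 ± 2.58 in PUE and 28.7 ± 3.26 in untreated libraries (SD, n = 3). The sum removes any split among these 4 genes, but not a split with the UGT1A genes that are not in the table. The summed ranges, 4.66 to 8.21 CPM in GLY and 25.4 to 31.9 CPM in untreated libraries, did not overlap. CYP1B1 has 11.3% of its exonic bases under the antisense gene CYP1B1-AS1, and without a statement that counting used strand their reads cannot be told apart. AHRR shares 3.18% with PDCD6, and CYP1A1 and ALDH3A1 had no overlap with the neighbours checked.

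Other genes of the pathway were read from lists of which the table held only some members. The table holds genes selected for change, so the counts and medians below describe those members and not the whole lists. Of 18 genes of the AHR complex and its cofactors, 5 were tested, and after GLY 2 were called higher and 2 lower. Their median log2 fold change was −1.02, beside −1.15 for all tested genes. Over all tested genes, 64.6% were called lower and 19.7% higher after GLY, and 57.1% lower and 20.2% higher after GLY_PUE. Every list count relative to library totals stands beside these shares. Under TMM, 1158 of the 3429 tested genes were called after GLY, 346 of them lower and the others higher. After GLY_PUE, 1211 were called under TMM, 394 of them lower and the others higher. List counts under TMM stand beside these numbers. Under TMM 2 of the 5 AHR complex and cofactor genes were called higher and 0 lower after GLY. HSP90AA1, the stress-inducible chaperone that holds AHR in the cytosol, rose to 2358 ± 682 FPKM in GLY, against 1152 ± 43.3 FPKM in untreated libraries (log2 fold change 1.03, adjusted p = 0.00131). RELB, an NF-κB subunit that can pair with AHR, was called higher (1.03, adjusted p = 0.0268), but the call was lost without GLY replicate 1 (0.62, adjusted p = 0.123), without untreated replicate 3 (0.74, adjusted p = 0.101) and with only the compared libraries in the fit (adjusted p = 0.0551). The coactivator NCOA2 fell (−1.86, adjusted p = 0.0161), as did CUL4B, a scaffold of the ubiquitin ligase that AHR joins (−1.05, adjusted p = 0.00498), while under TMM neither was called and CUL4B was at 0.05. NCOA2 also lost its call without replicate 3 of all groups (−2.09, adjusted p = 0.0882). After GLY_PUE, 1 of these 5 was called higher and 1 lower.

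Of 30 other genes reported to respond to AHR ligands, 6 were tested, and after GLY 3 were called higher and 3 lower, with a median of 0.00. The secreted glycoprotein STC2 rose (1.40, adjusted p = 0.000226), as did the transcription factor SNAI2 (2.73, adjusted p = 0.00154) and the growth factor EREG (2.10, adjusted p = 0.0147). The adaptor NEDD9 fell (−2.14, adjusted p = 0.0004), also under TMM (−0.98, adjusted p = 0.0124), and UGT1A4 and UGT1A3 were the remaining 2. After GLY_PUE, 3 were called higher and 2 lower. Under TMM 3 were called higher and 2 lower in either comparison. The GLY and untreated levels of EREG overlapped, and its call was lost without replicate 3 of all groups (1.58, adjusted p = 0.0734), without GLY replicate 2 (1.62, adjusted p = 0.0622) and without untreated replicate 3 (1.68, adjusted p = 0.0501).

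Among the rest of the oxidising enzymes, 10 of 53 cytochrome P450 genes and their electron donors were in the table and 7 were tested. After GLY 1 was called higher and 4 lower (median −1.14), and after GLY_PUE 2 higher and 4 lower (median −1.39). CYP26A1, which clears retinoic acid, fell to 0.03 ± 0.0265 FPKM in GLY, against 0.807 ± 0.372 in untreated libraries (−4.65, adjusted p = 0.000319, and −3.69 without replicate 3 of all groups), and was called under TMM too. CYP2U1, a fatty acid hydroxylase, fell (−2.21, adjusted p = 0.000131), as did the electron donor CYB5B (−1.28, adjusted p = 0.00052), which was not called under TMM. CYP4F11, the gene called higher, averaged 0.34 ± 0.0964 FPKM in GLY and 0.113 ± 0.0603 in untreated libraries (1.67, adjusted p = 0.0106), and without replicate 3 of all groups it was not called (1.07, adjusted p = 0.0964), which left 0 higher calls in the list. Under TMM 2 of the 7 were called higher and 2 lower in either comparison. Of 55 aldehyde, carbonyl and other oxidoreductases 5 were tested, with 1 called higher and 3 lower after GLY, and 2 higher and 2 lower under TMM. The retinaldehyde dehydrogenase ALDH1A3 averaged 14 ± 7.38 FPKM in GLY and 79.7 ± 19.7 in untreated libraries (−2.52, adjusted p = 0.000257), ALDH5A1 had −2.24 (adjusted p = 8.4e-05) and ALDH3A2, the fatty aldehyde dehydrogenase beside ALDH3A1, −1.39 (adjusted p = 0.00116). ALDH3A2 was not called under TMM (−0.24, adjusted p = 0.477). ALDH1L1, a folate enzyme, was the one called higher (0.93, adjusted p = 0.00848). After GLY_PUE 0 were called higher and 3 lower, with ALDH1L1 at 0.57 (adjusted p = 0.0701), and under TMM 2 higher and 2 lower.

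Of 57 conjugating enzymes, 10 were tested, and 2 were called higher and 6 lower both after GLY (median −1.26) and after GLY_PUE (median −1.24). SULT2B1, which sulphates cholesterol, rose to 3.59 ± 1.25 FPKM in GLY, against 0.707 ± 0.111 in untreated libraries (2.33, adjusted p = 0.000151), and NNMT, which methylates nicotinamide, was called higher as well (adjusted p = 0.00108). NNMT averaged 0.357 ± 0.159 FPKM in GLY and 0.01 ± 0.0173 in untreated libraries, a level near 0, so its fitted log2 fold change depends on single libraries (4.62, and 6.52 without untreated replicate 2). The higher count of the list was 1 without replicate 3 of all groups, with the stricter filter on low counts and with only the compared libraries in the fit. The glutathione transferase GSTA4 fell (−1.51, adjusted p = 0.0103; call lost without untreated replicate 3, −0.99, adjusted p = 0.0624), as did the microsomal MGST1 relative to library totals (−1.12, adjusted p = 0.00571), while MGST1 was at 0.02 under TMM. Under TMM only 1 of the 10, UGT1A4, stayed lower after GLY. Of 31 drug transporters 7 were tested, with 1 higher and 4 lower after GLY (median −1.10) and 1 higher and 3 lower after GLY_PUE (median −0.81). Under TMM 2 were called higher and 0 lower after GLY, and 2 higher and 1 lower after GLY_PUE. The calls over all tested genes turned in the same way, with 346 of 1158 lower under TMM after GLY and 394 of 1211 after GLY_PUE. ABCC6 fell relative to library totals (−1.82, adjusted p = 0.00109) but was not called under TMM (−0.67, adjusted p = 0.19), and the prostaglandin transporter SLCO2A1 rose (1.52, adjusted p = 0.0108).

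The list of other xenobiotic receptors and NRF2 genes, which respond to oxidants and electrophiles, was the one with mostly higher calls. Of its 24 genes 10 were tested. After GLY 7 were called higher and 1 lower, with a median of 1.3 beside −1.15 for all tested genes, and 19.7% of all tested genes were called higher. SRXN1, which repairs peroxiredoxins, rose to 144 ± 11.2 FPKM in GLY, against 46.6 ± 3.26 in untreated libraries (1.63, adjusted p = 6.36e-05). HMOX1, the haem-degrading enzyme, rose to 71.4 ± 14.8 FPKM, against 11.2 ± 4.56 in untreated libraries (2.67, adjusted p = 0.000634). The small MAF partners of NRF2, MAFK (1.65) and MAFF (1.66), and the thioredoxin reductase TXNRD1 (1.12) were also called higher. Without replicate 3 of all groups TXNRD1 lost its call (0.70, adjusted p = 0.119). GCLM (0.81, adjusted p = 0.0715) and SLC7A11 (0.67, adjusted p = 0.132) were not called after GLY, but both were called without GLY replicate 1 (GCLM 1.22, adjusted p = 0.000424, and SLC7A11 1.09, adjusted p = 0.000112), and under TMM (GCLM 1.84, adjusted p = 0.0019, and SLC7A11 1.72, adjusted p = 0.00188). Under TMM 9 of the 10 were called higher and 0 lower. After GLY_PUE, relative to library totals, all 9 tested genes other than VDR were called higher, beside 20.2% of all tested genes. VDR, the vitamin D receptor, was the one called lower, in GLY (−1.63, adjusted p = 0.000329) and in GLY_PUE (−1.52, adjusted p = 0.00051), but not under TMM. UGT1A6 and ALDH3A1, which NRF2 is also known to induce, were lower relative to library totals, while ALDH3A1 was at 0.13 under TMM. No gene of these lists was called after PUE alone or in GLY_PUE against GLY.

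**Figure D5:**
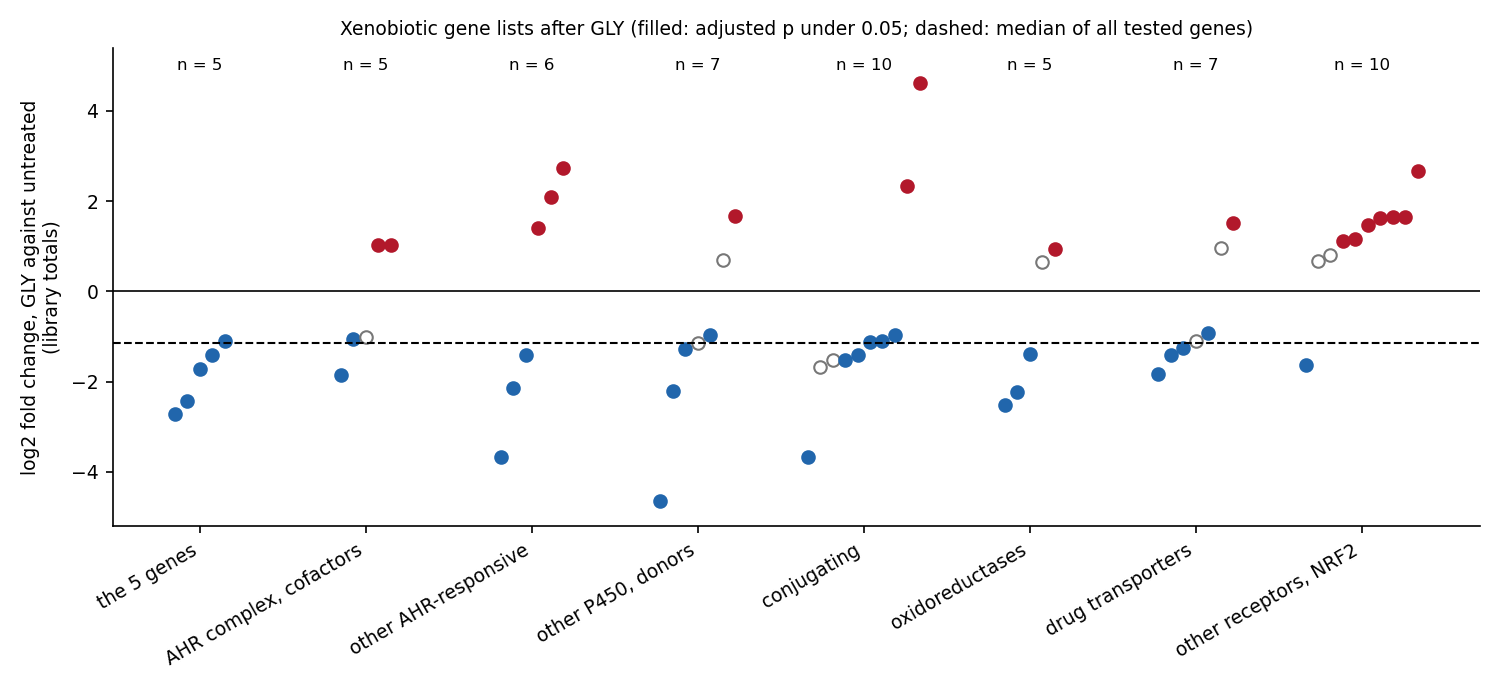
Log2 fold changes in GLY against untreated cells, relative to library totals, for the 5 genes and for the tested members of 7 lists. Each point is a gene, filled where the adjusted p is under 0.05 (red higher, blue lower), and the dashed line is the median of all tested genes, −1.15. The list of other receptors and NRF2 genes has 7 filled points above 0, and every list but the 5 genes holds genes on both sides.

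The profiles of the 5 genes were not closer to each other than to many other genes. Over the 12 libraries, with 2814 genes compared and each centred on its own mean, the nearest profiles to AHRR were those of RASA4 and VSIG10 (root mean square log2 difference 0.09 each). UGT1A6 was nearest to HOXC6 (0.18), CYP1A1 to ITPKB and WBP1L (0.18 each), CYP1B1 to CIT (0.13), and ALDH3A1 to CCDC34 (0.13), with the sulphotransferase SULT1A1 also near (0.16). Between members the closest pair was CYP1B1 and AHRR (0.30), which put AHRR 230th in the order of CYP1B1. The median over the genes compared with CYP1B1 was 0.52. AHRR was 216th in the order of CYP1A1 (0.33, beside a median of 0.55). ALDH3A1 and UGT1A6 differed by 0.70, beside medians of 0.61 for ALDH3A1 and 0.75 for UGT1A6. The profiles are log2 CPM after a constant was added to every value, which shrinks changes of genes at low CPM. CYP1B1 averaged 0.248 CPM in GLY and 1.68 CPM in untreated libraries, so its distances depend in part on that constant. How far they do was not tested. The points share libraries and depth, and the likeness is a description over 12 libraries in 4 groups.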

How the data were processed

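Per the file headers, the authors deposited 1 table with a read count, an expression value, log2 ratios, p-values and q-values. The deposited counts are estimated counts without normalization (58.2% whole within 1e-09). The deposited expression values carry no unit in the header and behave as FPKM. The authors' log2 ratios, p-values and q-values are used only where named. The submitters' processing notes name TopHat and DESeq 1.32.0 without a role. Counting tool, annotation and genome build: not given in the sources used here. As checked on the file, each listed gene passes an absolute log2 ratio of 1 and a q-value of 0.001 in some comparison of the authors.

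The table is part of each library, so library totals were recovered from the count to FPKM ratio of 625 genes with at least 100 counts and 5 FPKM everywhere, and scaled by 39 single-transcript genes of GENCODE release 29 (20.2 M reads in untreated replicate 1, 95% interval 20.0 to 20.7). Rounded counts entered edgeR 4.0.16 (R 4.3.3): robust quasi-likelihood fit of 4 groups, filterByExpr, recovered totals as library sizes, Benjamini-Hochberg over 3429 genes, adjusted p under 0.05. Alternatives were TMM, RLE, DESeq2 1.42.0, limma-voom and limma 3.58.1 on log2 FPKM, filters, a replicate block and left-out libraries. The edgeR, limma-voom and DESeq2 fits were tested on simulated counts, with changes set in GLY only, as many up as down. The simulation had no TMM fit and no replicate structure, so it does not cover the scaling or the libraries that stood apart. The members, lists and alternatives were chosen with earlier results of these data known. Named list genes are up to 4 of smallest p per list and comparison with untreated, and the UGT1A genes. HMOX1 and GCLM lie outside that rule, and EREG, GSTA4, TXNRD1 and SLC7A11 meet it only in PUE against untreated. All of these were chosen after their values were seen. Replicate numbers were checked for pairing by the correlation of deviations from group means. These were above 0.1 for every number in GLY_PUE with GLY (0.105, 0.416 and 0.396), with PUE (0.285, 0.223 and 0.423) and with untreated cells (0.292, 0.234 and 0.406), and in PUE with untreated cells (0.637, 0.547 and 0.816). They were not above it for every number in GLY with untreated cells (0.066, 0.0983 and 0.302) or in GLY with PUE (0.0365, 0.172 and 0.201).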

Additional observations from a re-analysis of the deposited data

How the results depend on the processing

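Scaling mattered most: within the table, TMM put the median of all tested genes at −0.02 in both comparisons of GLY-treated with untreated cells, and the cause of each lost call was not tested further. Of the 5 genes called in GLY against untreated, 2 remained under TMM, under RLE, under TMM with the replicate block and under TMM without GLY replicate 1, and 1 under TMM without replicate 3. In GLY_PUE against untreated 1 was called under TMM, RLE and TMM with the replicate block, and 2 under TMM without GLY replicate 1 or without replicate 3. The same counts held against PUE. Leaving out 1 library gave 3 to 5 called genes in GLY_PUE against untreated, 4 to 5 in GLY against untreated and 4 to 5 in GLY_PUE against PUE. All genes called fell to 1158 (TMM) and 1188 (RLE) of 2890 for GLY, 1211 and 1234 of 2651 for GLY_PUE, and 1232 and 1250 of 2669 against PUE. The replicate block changed no call of the 5 genes and gave 3086, 2926 and 2949 called genes in these comparisons; its combinations with TMM and the TMM fits without libraries were added after seeing the data. UGT1A6 kept its call in all 26 alternatives of these 3 comparisons.

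Signs turned for ALDH3A1 in GLY against untreated (TMM 0.13, RLE 0.06, TMM with block 0.18, TMM without replicate 3 0.40) and, under TMM, for CUL4B (0.05) and MGST1 (0.02). Small uncalled values also turned. For PUE against untreated, leaving out libraries gave −0.19 to 0.19 for CYP1A1 (0.09 without replicate 3, 0.07 with TMM added), −0.08 to 0.19 for AHRR and −0.40 to 0.51 for ALDH3A1. For GLY_PUE against GLY it gave −0.18 to 0.03 for CYP1A1, and AHRR was at −0.03 under TMM, −0.03 with the block and TMM, and −0.06 without replicate 3 and TMM. For the interaction, leaving out libraries gave −0.26 to 0.12 for CYP1A1, −0.08 to 0.18 for AHRR, −0.15 to 0.21 for UGT1A6 and −0.70 to 0.21 for ALDH3A1. AHRR was at −0.06 under TMM, −0.02 under RLE, −0.03 without replicate 3, −0.06 with block and TMM, and −0.03 and −0.12 under TMM without GLY replicate 1 or replicate 3. UGT1A6 was at −0.10 under TMM, −0.06 under RLE, −0.01 on log2(FPKM + 1), −0.09 with block and TMM, and −0.03 under TMM without replicate 3. With only the compared libraries in the fit, CYP1B1 was filtered out of GLY_PUE against GLY and the interaction has no such fit. CYP1A1 and CYP1B1 rest on few reads, which limits their precision.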
